A study of Mus musculus with 6 samples.

Results

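Complement is a cascade of blood proteins and cell-surface receptors, and 8 of its genes are described here in mouse bone marrow cells: C4b, C4a, C2, C3, Cfb, Cfp, C3ar1 and C5ar1. Each was looked up by its symbol and Ensembl identifier. All 8 were found among the 20097 genes listed. They were chosen on measured differences between the groups of these same libraries, so their values and differences are given as a description, and no test of them is read.

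RNA was measured by sequencing poly-A RNA of c-Kit+ bone marrow cells, a fraction that carries the receptor encoded by Kit and is rich in blood stem and progenitor cells. There were 3 libraries labelled WT and 3 labelled Runx1 KO, a knockout of the gene for the transcription factor Runx1. The labels give neither the age, sex or strain of the mice nor how, when or in which cells Runx1 was disrupted. They do not say whether the libraries of a group came from separate animals, so p-values below measure the spread between these libraries, which may be technical. The deposited values are gene read counts scaled by the size factor of their library and are called normalised read counts below.

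The libraries held 23297526 to 26793380 recovered reads, and the floor of 3 reads corresponded to 2.88 to 3.14 normalised reads. Such floors and the intervals below cover counting error only, since the reads carry no molecular identifiers and copies of 1 molecule may be counted more than once. Libraries of a group correlated with r from 0.979 to 0.990 across genes, and every pair differed beyond sampling noise. Runx1 itself was at 3031, 2799 and 3497 normalised reads in WT 1 to 3 and at 6648, 6720 and 5830 in the libraries labelled Runx1 KO 1 to 3. The gene-level value was thus 2.06-fold higher in the libraries labelled knockout (limma, log2 change 1.04, SE 0.10, adjusted p = 0.00163), and it cannot show a deletion of part of the gene. For that reason the groups are called by their labels throughout. Kit was measured in all 6 libraries, at 7979, 8455 and 8471 normalised reads in WT and at 11507, 13684 and 12756 in Runx1 KO. Its mean was 1.52-fold higher in Runx1 KO (limma, log2 change 0.60, SE 0.07, adjusted p = 0.00346).

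Complement is activated by the classical, lectin and alternative pathways, which meet at the cleavage of the central component encoded by C3. C4 and C2 form the C3-cleaving enzyme of the classical and lectin pathways, while factor B (Cfb) and properdin (Cfp) form and stabilise that of the alternative pathway. The small fragments released from C3 and C5 act on the receptors C3ar1 and C5ar1 of myeloid cells. The liver makes most complement of the blood, and myeloid cells make some components, properdin in particular.

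C4b and C4a are near-identical copies on chromosome 17, and the reads that separate them are those over differing bases. The C4b-201 transcript has 5379 bases and the C4a-207 transcript 5371 (GENCODE M21). In an alignment of 5367 bases, 5160 were identical (96.1%) and 207 differed. The 80 bases of exon 21 of 41 shown here, on GRCm38 (minus strand, 5′ to 3′), hold 13 of these differences, marked by capitals. This stretch was chosen for holding the most differences within 1 coding exon, so it is not typical of the transcripts. C4b lies there at chr17:34735430-34735509 and C4a at chr17:34816086-34816165.
C4b: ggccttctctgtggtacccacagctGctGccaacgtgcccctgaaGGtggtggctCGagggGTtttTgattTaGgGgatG
C4a: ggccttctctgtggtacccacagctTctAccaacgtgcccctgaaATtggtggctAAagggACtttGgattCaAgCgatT
Of the 5330 windows of 50 bases in the C4b transcript, 35.2% also occurred in C4a, and of the 5280 windows of 100 bases, 16.5% did. The read length is not given in the sources used here, so how many reads could be placed on only 1 copy is not known.

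The RefSeq promoter table (GRCm38.p6) held 4 of the 8 genes, C3, Cfp, C5ar1 and C3ar1. The 250 bases before the RefSeq start site were searched for 5 motifs on both strands. These were TGTGGT, the core motif of RUNX factors, and GAAANNGAA, the core of the interferon-stimulated response element. The others were TTCNNNGAA, the GAS element bound by STAT factors, GGGACTTTC, a site of NF-kB, and the motif of GATA factors, GATAAG. The C5ar1 and C3 windows are shown because these are the most different and the most abundant of the genes that were lower in Runx1 KO. They lie on the minus strand at chr7:16259339-16259588 for C5ar1 and at chr17:57228137-57228386 for C3, are printed 5′ to 3′, and carry matches in capitals.
C5ar1: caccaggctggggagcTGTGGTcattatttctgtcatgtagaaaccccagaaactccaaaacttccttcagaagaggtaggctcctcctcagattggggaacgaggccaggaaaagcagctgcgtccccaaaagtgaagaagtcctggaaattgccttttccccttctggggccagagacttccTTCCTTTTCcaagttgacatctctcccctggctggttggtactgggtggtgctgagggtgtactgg
C3: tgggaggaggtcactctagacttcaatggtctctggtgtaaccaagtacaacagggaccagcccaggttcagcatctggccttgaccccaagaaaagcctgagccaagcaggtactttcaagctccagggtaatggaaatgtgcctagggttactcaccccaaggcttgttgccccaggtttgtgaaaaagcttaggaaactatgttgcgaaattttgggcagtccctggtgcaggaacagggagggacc
The C5ar1 window held TGTGGT at 234 to 229 bases before the RefSeq start site. On the other strand it held GAAANNGAA at 66 to 58 bases, and the matches do not overlap. The GENCODE M21 gene of C5ar1 begins at 16259540, inside this window, so much of the window lies within that gene. The GAAANNGAA match lies inside that gene and the TGTGGT match outside it. Of 32851 windows of the same length, 14.0% held TGTGGT and 7.13% held GAAANNGAA. The C3 and Cfp windows held none of the 5 motifs. The C3ar1 window held GATAAG, on the other strand at 50 to 45 bases, as did 6.55% of all windows. TTCNNNGAA was in 7.02% of all windows and GGGACTTTC in 0.289%, and neither was in any of the 4. A match is a run of letters and was not tested as a binding site.

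C4b, which encodes the complement component C4, had the largest log2 difference of the 7 genes that entered the fit. Its gene (ENSMUSG00000073418) lies at chr17:34728380-34743882 on GRCm38. C4b was at 119, 277 and 94.96 normalised reads in WT 1 to 3 and at 1864, 2185 and 2459 in Runx1 KO 1 to 3. All Runx1 KO libraries were far above all WT libraries, and the lowest Runx1 KO library stood 6.72-fold above the highest WT library. The group means were 164 ± 99.2 in WT and 2169.6 ± 298 in Runx1 KO (SD, n = 3 each), a 13.3-fold ratio and a log2 difference of 3.87 (SE 0.37). WT 2 was the highest WT library, and without it the ratio was 20.3. Over all single libraries left out the ratio ran from 10.95 to 20.3.

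C4a, the copy also called Slp, was low in every library. Its gene (ENSMUSG00000015451) lies at chr17:34809092-34823464 and is annotated as a processed transcript. C4a was at 8.90, 11.1 and 11.5 normalised reads in WT and at 15.7, 20.8 and 11.9 in Runx1 KO. The groups did not overlap, but the nearest libraries were 1.04-fold apart. The means were 10.5 ± 1.40 and 16.1 ± 4.46 (SD, n = 3 each), with a log2 difference of 0.55 (SE 0.30), and C4a passed the filter on low values only because of its Runx1 KO libraries.

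The share of C4a among the reads given to either copy differed between the groups. In WT 1 to 3 it was 6.98% (exact Clopper-Pearson 95% interval 3.24 to 12.8), 3.85% (1.94 to 6.78) and 10.8% (5.71 to 18.1). In Runx1 KO 1 to 3 it was 0.835% (0.468 to 1.37), 0.943% (0.585 to 1.44) and 0.483% (0.2498 to 0.842). Every WT share was above every Runx1 KO share, as the C4b reads differed more between groups than the C4a reads. The sum of both copies does not depend on how the counted reads were divided between them. Reads that fit both copies may have been left out of both counts and would be missing from it. The sum came to 174 ± 99.6 in WT and 2186 ± 296 in Runx1 KO (SD, n = 3 each), a ratio of 12.5. Without WT 2 that ratio was 18.7.

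**Figure D1:**
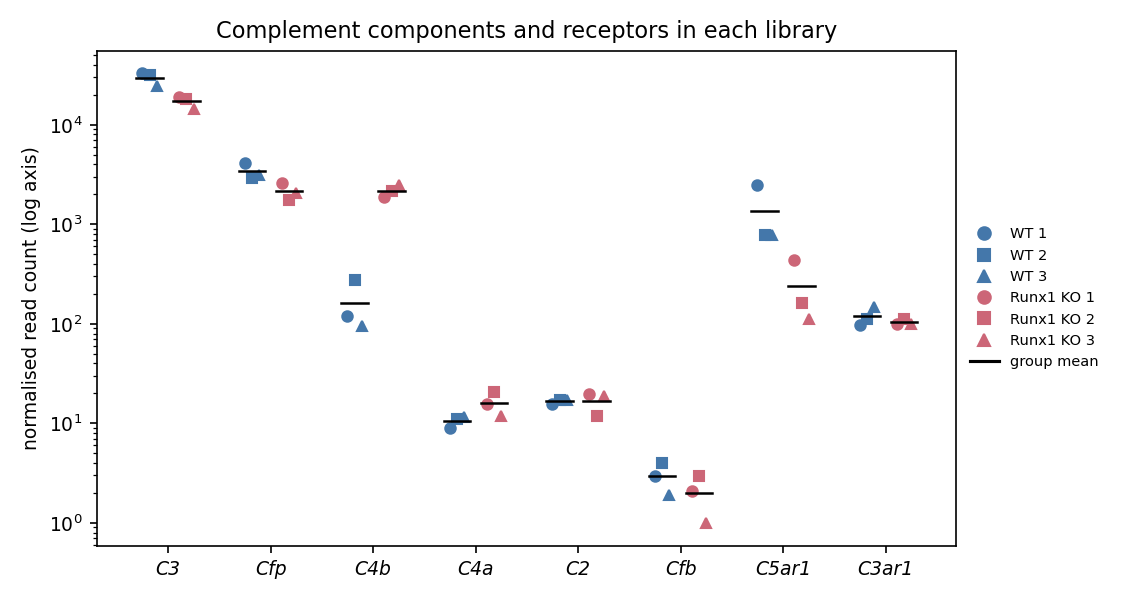
Normalised read count (log axis) of the 8 complement genes in each library, WT in blue and Runx1 KO in red, with the group mean as a black line. The Runx1 KO libraries of C4b (1864 to 2459) stand clear above WT (94.96 to 277), while C3, Cfp and C5ar1 are lower in Runx1 KO and C2, Cfb and C3ar1 overlap.

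C2 encodes the protease subunit that pairs with C4 in the C3-cleaving enzyme, and its means in the groups lay close together. Its gene (ENSMUSG00000024371) lies at chr17:34862604-34898265. C2 was at 15.8, 17.2 and 17.3 normalised reads in WT and at 19.9, 11.9 and 18.9 in Runx1 KO. The groups overlapped, the means were 16.7 ± 0.80 and 16.9 ± 4.35 (SD, n = 3 each), and the log2 difference was -0.02 (SE 0.28). The annotated C2 gene spans Zbtb12 on the opposite strand, and whether counting used the strand is not given in the sources used here.

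Cfb encodes factor B, the protease subunit of the alternative pathway. Its gene (ENSMUSG00000090231) lies at chr17:34856374-34862518. Cfb had 3, 4 and 2 recovered reads in WT and 2, 3 and 1 in Runx1 KO. Both groups were at the floor of 3 reads, so that Cfb was left out of the fit and no fold is given.

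C4b, C4a, Cfb and C2 lie within 170 kb of chromosome 17, in the class III region of the major histocompatibility complex. Between 34728380 and 34898265 there were 9 listed genes, of which 5 are no complement genes: Stk19, Dxo, Skiv2l, Nelfe and Zbtb12. This neighbourhood was described after the values were seen. None of the 5 passed the limma test across all genes, with 3 at an unadjusted p under 0.05 and 0 passing in edgeR or DESeq2. Their log2 differences ran from -0.20 for Nelfe to 0.25 for Zbtb12, and the lowest adjusted p was 0.0630, for Zbtb12. The difference of C4b was thus larger than that of any other fitted gene in the interval.

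**Figure D2:**
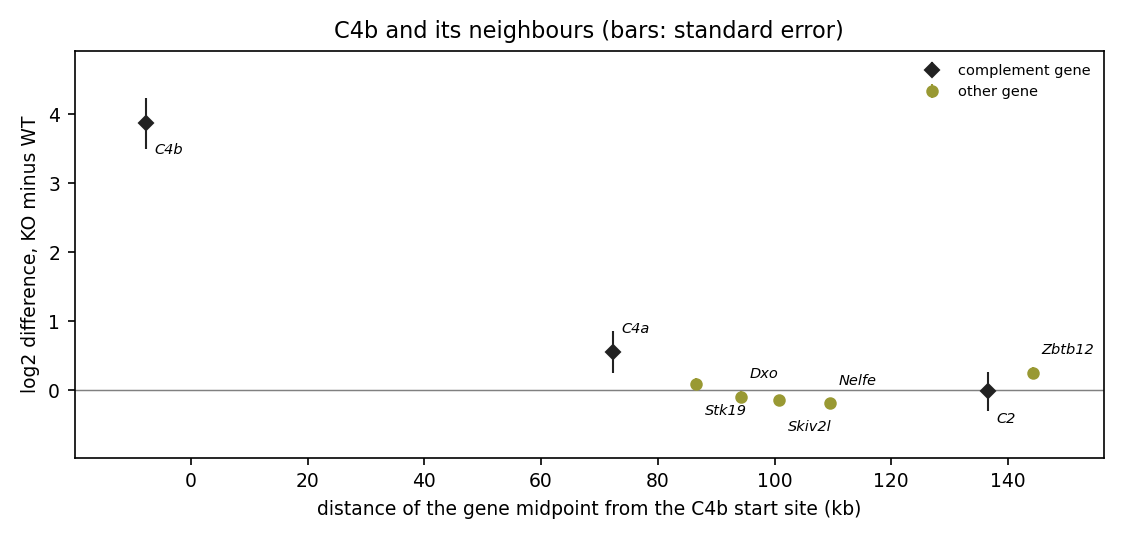
Log2 difference (Runx1 KO minus WT, bars are standard errors) of the fitted genes between C4b and C2, against the distance of each gene's midpoint from the C4b start site in kb. C4b stands at 3.87, while the other genes lie between -0.20 and 0.55.

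C3, the component on which all pathways meet, was the most abundant of the 8 and was lower in Runx1 KO. Its gene (ENSMUSG00000024164) lies at chr17:57203970-57228136. C3 was at 32945, 31591 and 24734 normalised reads in WT and at 19065, 17991 and 14476 in Runx1 KO. All WT libraries were above all Runx1 KO libraries, with 1.30-fold between the nearest. The means were 29757 ± 4402 and 17178 ± 2400 (SD, n = 3 each), 1.73-fold higher in WT, with a log2 difference of -0.79 (SE 0.14).

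Cfp, which encodes properdin, the stabiliser of the alternative pathway enzyme, was lower in Runx1 KO by a like ratio. Its gene (ENSMUSG00000001128) lies at chrX:20925454-20931555. Cfp was at 4120, 2916 and 3157 normalised reads in WT and at 2624, 1751 and 2079 in Runx1 KO. The groups did not overlap, but WT 2 and Runx1 KO 1 were 1.11-fold apart. The means were 3398 ± 637 and 2151 ± 441 (SD, n = 3 each), 1.58-fold higher in WT, with a log2 difference of -0.66 (SE 0.18).

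Of 12 monocyte and macrophage markers, 5 fell, 0 rose and 7 did not pass the limma test, and their summed level was 70456 to 88430.8 normalised reads in WT and 41746.3 to 59908.7 in Runx1 KO. By the same test, 11.3% of all genes tested fell and 10.6% rose, shares that stand beside this and every marker count below. No hepatocyte marker was listed (0 of 6, Alb, Apoa1 and Ttr among them). In these bulk samples, fewer cells of a type and less RNA per cell cannot be told apart, and the part of the monocyte and macrophage markers in the C3 and Cfp values was not tested.

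C5ar1, the receptor of the C5a fragment and a receptor of mature neutrophils and monocytes, had the lowest log2 difference of the 7 in the fit. Its gene (ENSMUSG00000049130) lies at chr7:16246743-16259540. C5ar1 was at 2465, 788 and 789 normalised reads in WT and at 438, 163 and 111 in Runx1 KO. Library 1 was the highest of its group in both, as it also was for C3 and Cfp. The lowest WT library of C5ar1 stood 1.80-fold above its highest Runx1 KO library. The means were 1348 ± 968 and 237 ± 176 (SD, n = 3 each), 5.68-fold higher in WT, with a log2 difference of -2.52 (SE 0.61). The size of this ratio depended on single libraries: it was 3.32 without WT 1, 9.84 without Runx1 KO 1, and 5.76 without both.

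C3ar1, the receptor of the C3a fragment, overlapped between the groups. Its gene (ENSMUSG00000040552) lies at chr6:122847138-122856161. C3ar1 was at 97.9, 112 and 147 normalised reads in WT and at 99.4, 111 and 99.5 in Runx1 KO. The means were 119 ± 25.1 and 103 ± 6.69 (SD, n = 3 each), with a log2 difference of -0.18 (SE 0.19).

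Of 13 neutrophil granule and surface markers, 8 fell, 0 rose and 5 did not pass, and their summed level was 318630 to 421541 in WT and 160862 to 224173 in Runx1 KO. Cxcr2, a chemokine receptor of mature neutrophils, was highest in library 1 of each group, at 5761, 1690 and 1332 in WT and 1501, 765 and 782 in Runx1 KO. Mmp9, a protease of late granules, was also highest in library 1, at 19490, 4465 and 4174 in WT and 4864, 1652 and 1808 in Runx1 KO. Both overlapped between groups and did not pass (limma, adjusted p = 0.135 each). Ltf, a gene of the secondary granules, was at 72796, 54263 and 46436 in WT and 23247, 7105 and 6219 in Runx1 KO. It too was highest in library 1 of each group, and it fell (limma, log2 change -2.49, adjusted p = 0.0133). Mpo, a gene of the primary granules and of early myeloid cells, was at 72943, 81448 and 70662 in WT and 68650, 69534 and 66191 in Runx1 KO and did not pass (log2 difference -0.14, adjusted p = 0.233). Elane and Prtn3, protease genes of the same granules, fell (log2 changes -0.35 and -0.41, adjusted p = 0.0242 and 0.0193), while Ctsg, another, did not pass (log2 difference -0.05, adjusted p = 0.629). These 7 markers were picked after their values were seen, and the part of the neutrophil markers in the C5ar1 value was not tested.

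**Figure D3:**
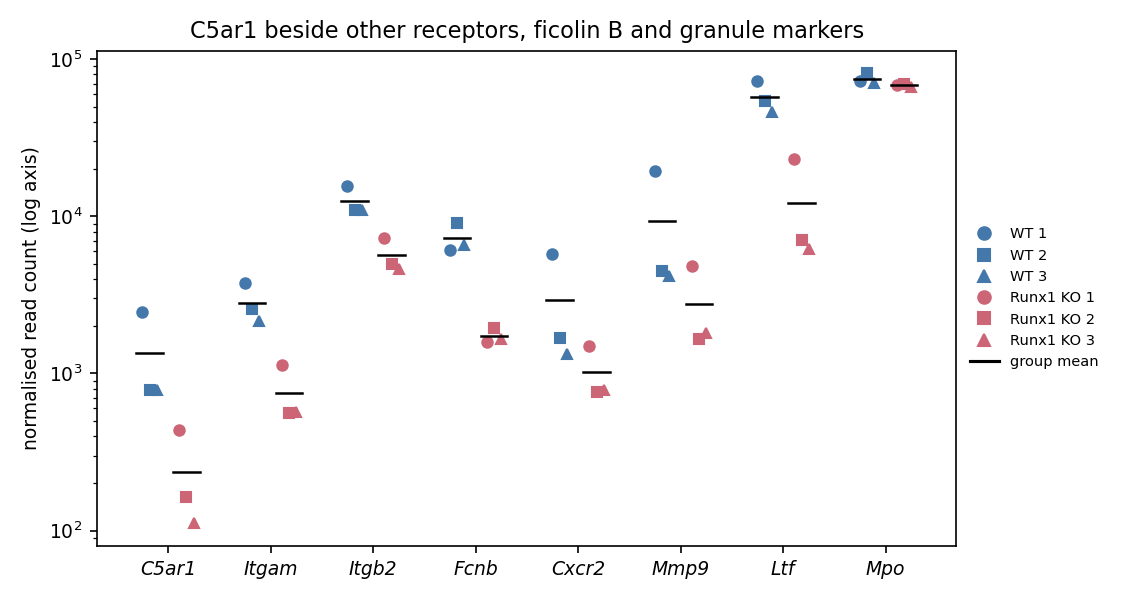
Normalised read count (log axis) of C5ar1, the receptor genes Itgam and Itgb2, ficolin B (Fcnb) and 4 granule or neutrophil markers in each library, with group means as black lines. Library 1 is the highest of its group in both groups for C5ar1, Itgam, Itgb2, Cxcr2, Mmp9 and Ltf, but not for Fcnb or Mpo. Mpo lies between 66191 and 81448 in all 6 libraries.

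Of the 8 genes, 7 entered the fit across 15410 genes and Cfb did not. The differences of 4 of the 7 were past an adjusted p of 0.05, 1 higher (C4b) and 3 lower (C3, Cfp and C5ar1) in Runx1 KO. Over all genes tested the share past that threshold was 21.9%, with 10.6% higher and 11.3% lower. The libraries of the groups did not overlap in 5 of the 7, against 43.3% of all genes tested. The genes were chosen on this contrast, so nothing is read from these counts. The median log2 difference of the 7 was -0.18, and that of all genes tested was -0.00.

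Levels of different genes are compared per kilobase of exon. C3 stood highest, at 5786 ± 856 normalised reads per kilobase in WT and 3340 ± 467 in Runx1 KO (SD, n = 3 each). Cfp followed at 1957 ± 367 and 1239 ± 254, and C5ar1 was the third in WT at 524 ± 377. In Runx1 KO the third place was held by C4b, at 381 ± 52.3, and C5ar1 was at 92.4 ± 68.4. C4b in WT was at 28.8 ± 17.4 (16.7 to 48.7) and overlapped with C3ar1 (22.7 to 34.1 in WT), so these neighbours in the order did not differ beyond their spread. C2 was at 4.33 ± 0.21 in WT and C4a at 1.69 ± 0.23, while in Runx1 KO C2 (3.07 to 5.13) and C4a (1.92 to 3.35) overlapped. Among all tested genes the mean level per kilobase of C4b lay at percentile 22.7 in WT and 72.3 in Runx1 KO. For C3 these percentiles were 99.2 and 98.5.

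The profile of a gene over the 6 libraries was compared with that of all others by the root-mean-square difference of centred log2 values, where 0 means the same profile. The distance includes the group difference on which the 8 genes were chosen. The 5 genes nearest to C4b were Plagl1 (0.33), Cttnbp2 (0.39), Iigp1 (0.52), 1700016F12Rik (0.56) and Gm12185 (0.57), against a median of 2.00 over all genes. Cttnbp2 had 2, 4 and 2 reads in WT 1 to 3, and 1700016F12Rik had 1, 4 and 1. Both were near the floor in WT and passed the filter on low values only because of their Runx1 KO libraries. Plagl1, a zinc finger transcription factor gene, was at 15.8, 30.3 and 20.1 normalised reads in WT and 246, 254 and 293 in Runx1 KO. Iigp1, an interferon-inducible GTPase gene, was at 118, 376 and 123 in WT and 1665, 3060 and 1202 in Runx1 KO. WT 2 was the highest WT library for all 5 nearest genes, as it was for C4b. Runx1 KO 3 was the highest of its group for C4b, Plagl1 and Cttnbp2. It was the lowest for Iigp1, 1700016F12Rik and Gm12185. Iigp1 belongs to a family with near-identical copies, between which reads may have been split. The groups did not overlap for any of the 5 nearest genes, against 43.3% of all genes tested. As the distance includes the group difference, nothing is read from this.

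Of 17 interferon-stimulated genes, Iigp1 among them, 15 rose, 0 fell and 2 did not pass the limma test. Over all genes tested, 10.6% rose and 11.3% fell. The list was chosen with earlier results of these data known. The summed level of these 17 genes was 13422 to 15657 normalised reads in WT and 27775 to 39586 in Runx1 KO. Their part in the C4b value was not tested.

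The 5 genes nearest to C5ar1 were Ighv8-12 (0.15), Mmp25 (0.16), Fpr2 (0.17), A530064D06Rik (0.23) and Gm7514 (0.26), against a median of 1.51 over all genes. Mmp25, a membrane-bound protease gene of neutrophils, was at 3533, 1318 and 1317 normalised reads in WT and at 750.0, 243 and 226 in Runx1 KO. Fpr2, a formyl peptide receptor gene, was at 2255, 796 and 646 in WT and 373, 189 and 112 in Runx1 KO. As with C5ar1, library 1 was the highest of its group for all 5 of these nearest genes. Ighv8-12, an immunoglobulin segment, was at 141, 49.4 and 49.9 in WT and at 34.5, 9.91 and 6.96 in Runx1 KO. Gm7514 had 5, 1 and 1 reads in Runx1 KO 1 to 3, near the floor, and passed the filter only because of its WT libraries. The closest pair among the 7 chosen genes in the fit was Cfp and C3, at 0.24. These distances describe 6 libraries and carry no test.

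The other genes of the system were taken from lists by role. Of 51 such genes, 31 were listed and 21 entered the fit. Of those 21, 2 rose and 4 fell in Runx1 KO by the limma test, and 15 did not pass. The share that passed, 28.6%, stands beside 21.9% over all genes, and the median log2 difference was -0.35 beside -0.00. At an unadjusted p under 0.05 there were 11, and edgeR called 6 and DESeq2 8.

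Among initiators, ficolin B fell. Fcnb, a pattern-recognition molecule of the lectin pathway made by myeloid cells, was at 6071, 9112 and 6588 normalised reads in WT and at 1589, 1935 and 1662 in Runx1 KO. All WT libraries were above all Runx1 KO libraries (limma, log2 change -2.05, SE 0.16, adjusted p = 0.00102). Fcna, the other lectin pathway gene in the fit, did not pass. The C1q chains start the classical pathway, and C1qa was at 1682, 2808 and 2245 in WT and at 1665, 1219 and 1738 in Runx1 KO. C1qa, C1qb and C1qc had log2 differences of -0.53, -0.35 and -0.41 (SE 0.21, 0.22 and 0.25), and none passed (limma, adjusted p = 0.110, 0.300 and 0.274). Of the 4 C1 complex genes in the fit, 0 passed in limma or edgeR, 1 (C1qa) in DESeq2 (adjusted p = 0.0328), and 1 had an unadjusted p under 0.05. Without WT 1 all 3 C1q chains passed in limma, at adjusted p of 0.0417, 0.0455 and 0.0496.

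Among regulators, Cd59a rose. Of the 2 fluid-phase regulators in the fit, Serping1 and Clu, 0 passed in limma, edgeR or DESeq2, and 1 had an unadjusted p under 0.05. Cd59a, which blocks the membrane attack complex, was at 132, 149 and 136 in WT and 311, 270 and 348 in Runx1 KO. All Runx1 KO libraries were above all WT libraries for Cd59a (limma, log2 change 1.14, SE 0.14, adjusted p = 0.00325), and it was the 1 of 5 membrane regulators to pass. Cd55, which speeds the decay of the C3-cleaving enzymes, was at 1553, 674 and 855 in WT and 1254, 1131 and 1227 in Runx1 KO. Cd55 did not pass (limma, log2 difference 0.32, SE 0.28, adjusted p = 0.439), but did without WT 1 (0.66, adjusted p = 0.0186). Hc, the gene of C5, was not among the listed genes, and Cfd, the protease that cleaves factor B, was listed but too low for the fit, at 6 to 11 reads a library. C8g, the 1 terminal component in the fit, did not pass.

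Itgam, Itgb2 and Cr2, which encode receptors for C3 fragments or their chains, fell. Of the 7 other receptor genes, 3 fell, 1 rose and 3 did not pass. Itgam, the alpha chain of complement receptor 3, was at 3757, 2561 and 2160 in WT and 1136, 559 and 568 in Runx1 KO (limma, log2 change -1.95, SE 0.31, adjusted p = 0.00769). Itgb2, its beta chain, was at 15623, 10918 and 10954 in WT and 7333, 4950 and 4638 in Runx1 KO (log2 change -1.16, SE 0.21, adjusted p = 0.0104). For both, library 1 was the highest of its group and the groups did not overlap. Cr2, complement receptor 2, known from B cells, was at 110, 38.3 and 97.8 in WT and 30.3, 12.9 and 5.97 in Runx1 KO (log2 change -2.38, SE 0.62, adjusted p = 0.0352). The Cr2 call was lost without WT 1 (adjusted p = 0.0908), WT 3 (0.0962), Runx1 KO 2 (0.107) or Runx1 KO 3 (0.0908). Of 10 B-lymphoid markers, 7 fell and 0 rose, with a summed level of 7510 to 29579 in WT and 1212 to 3210 in Runx1 KO, and their part in the Cr2 value was not tested. Cd93, named as a receptor of C1q and known from stem cells and endothelium, rose from 12105, 8700.0 and 10063 to 18308, 16077 and 14813 (log2 change 0.68, SE 0.13, adjusted p = 0.0137). Without Runx1 KO 2 the Cd93 call was lost (adjusted p = 0.0523).

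**Figure D4:**
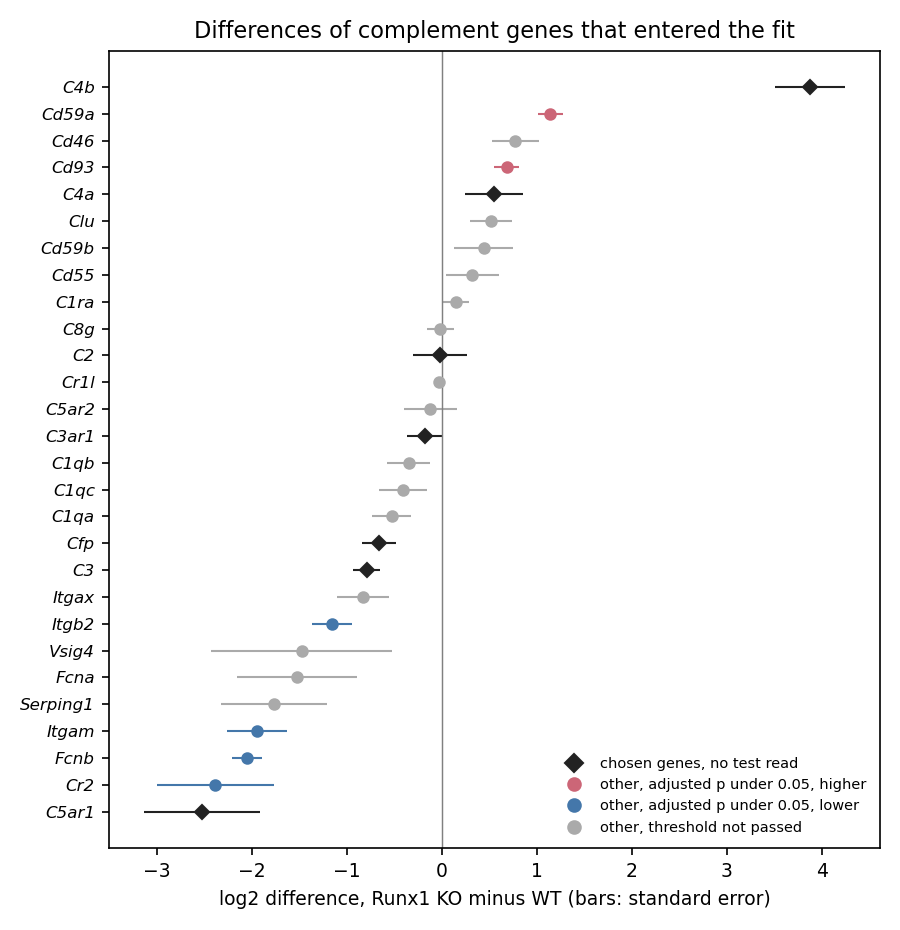
Log2 difference (Runx1 KO minus WT, bars are standard errors) of the 7 chosen genes (black diamonds) and the 21 other complement genes in the fit, ordered by size. C4b (3.87) is the highest and C5ar1 (-2.52) the lowest, with Cr2 (-2.38) and Fcnb (-2.05) next to C5ar1.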

How the data were processed

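Poly-A RNA of c-Kit+ bone marrow cells was sequenced in stranded libraries on a HiSeq2500, per the labels' protocols. The submitters' processing notes name HISAT2, HTSeq 0.9.1 and mm10/GRCm38. The deposited values are a signal: read counts divided by a size factor. All values were whole multiples (tolerance 0.001) of 1 step per file, which gave recovered reads. Symbols came from the supplied identifier table (20077 of 20097), and positions and exon lengths from GENCODE M21 on GRCm38. Genes passing filterByExpr (minimum count 10, total 15) were fitted with limma 3.58.1 (R 4.3.3) on log2(value + 1), 2-sided, with group as the only term and Benjamini-Hochberg adjustment. This scale understates changes of low genes. edgeR 4.0.16 and DESeq2 1.42.0 on recovered reads, other scalings, filters, pseudocounts, a replicate block and left-out libraries were alternatives.

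All 8 members were named, with each other complement gene that passed, C1qa, C1qb, C1qc, Hc, Itgam, Itgb2 and Cd55, and the 5 nearest profiles of 2 members. Members and lists were chosen with earlier results of these data known. A regulator of the planned lists is not reported here. The transcripts of C4b and C4a were aligned with Biopython 1.88 in place of the planned protein comparison. The fit was tested on simulated data.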

Additional observations from a re-analysis of the deposited data

How the results depend on the processing

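With all libraries, the 11 other analysis settings called 3182 to 3871 genes (3370 in the main analysis) and 6 to 8 other complement genes (6), and every setting kept those 6. Library totals shifted the median of all genes by 0.08 (log2) and made 63.5% of 3755 calls higher, against 48.4%. The log2 difference of C4b ran from 3.73 to 3.95 and that of C5ar1 from -2.53 to -2.44. C2, near 0, changed sign between settings. Leaving out 1 library gave 1367 to 3597 genes, with 632 to 1634 higher and 735 to 1963 lower. The count was lowest without Runx1 KO 2 (1330 shared with the main calls), and was 1767 without Runx1 KO 3 and 2208 without WT 2. Other complement genes numbered 4 to 9, with 1 to 3 higher, and the ratio of the C4 sums 10.5 to 18.7. In an alternative added after seeing the data, both libraries numbered 1 were left out: 12 other complement genes passed, 9 lower and 3 higher, with C1qa (-0.79), C1qb (-0.68), C1qc (-0.73), Cd55 (0.63), Itgax and Serping1 gained and none lost. Depth limits Cfb, C2 and C4a, which had at most 21 reads a library.

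Replicate numbers are shared between the groups in the titles, and whether they pair the libraries is not known. Deviations of same-numbered libraries correlated at 0.29, 0.13 and -0.01. The 0.29 of the libraries numbered 1 was the highest of all pairs between the groups, while Runx1 KO 3 correlated best with WT 2 (0.23). These few correlations cannot decide the question. A replicate block called 3843 genes in limma (43.1% higher), with 7 other complement genes (Fcna gained), and 3690 in edgeR, against 3263 in edgeR without it.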

Other observations

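The other cell type markers in these libraries are given as values, with no comparison of the complement genes resting on them. Stem and multipotent progenitor markers rose in 7 of 10, with a summed level of 19277 to 22839 normalised reads in WT and 29306 to 34039 in Runx1 KO. Megakaryocyte and platelet markers rose in 5 of the 8 tested (3895 to 4857 in WT, 5723 to 7964 in Runx1 KO), and endothelial markers in 3 of 8 (903 to 1282.5, and 1482 to 1821). Pf4 of the former and 3 endothelial markers (Cdh5, Stab2 and Flt1) had negative log2 differences and did not pass. Erythroid markers fell in 5 of 9 (18376 to 30920.4, and 12395 to 17722.5), while Klf1 and Epor had positive log2 differences and did not pass. Mast cell and basophil markers fell in 5 and rose in 1 of the 7 tested (8782 to 10946, and 6398 to 8427). T-lymphoid and NK markers fell in 1 of 10 (1117 to 1681, and 352 to 1224). Of 12 stromal markers, 8 were listed and 6 tested, and 5 fell (1193 to 1434, and 477 to 627), while Col3a1, Pdgfra, Lum and Bglap had no row.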
